A study of Mus musculus with 20 samples.

Results

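The effect of thoracic radiation on the lungs of flaxseed-fed mice was measured by setting 5 arrays from mice given flaxseed and radiation against 5 arrays from mice given flaxseed alone, 10 of the 20 arrays of the series. The arrays were chosen by the treatment in their labels, and all 9600 spots of each array were used. All mice were C57BL/6, an inbred laboratory strain that is widely used for radiation injury of the lung. Both groups ate a diet with 10% flaxseed for 21 days (3 weeks). The irradiated group then received 13.5 Gy to the chest, and lung tissue was taken 48 hours later. The other 10 arrays came from 5 untreated mice and 5 mice given the same dose without flaxseed. The sources used here do not give sex, age or the food of the mice without flaxseed.

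Thoracic radiation breaks DNA in lung cells, and the first days afterwards are known for arrest of dividing cells, loss of sensitive endothelial and immune cells, and oxidative and inflammatory signalling. Pneumonitis and fibrosis follow later. Flaxseed is rich in omega-3 fatty acid and in lignans, plant phenols with antioxidant activity, and has been studied as a dietary protector of irradiated lung. In whole lung, fewer cells of a type and less RNA per cell cannot be told apart.

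Each array was a single-channel MA10 array hybridised with target that carried radioactive phosphorus (33P). No file used here pairs the spots with genes: 0 of the 9600 spot names occurred in the mouse gene table used here. The spots are therefore given by number, the lung origin could not be checked against marker genes, and no pathway could be read from the list. A spot's number is a place in the list and not a gene identifier.

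No difference in overall signal was detected between the 2 groups of arrays. Median signal per array was 101 ± 17.7 scanner units (SD, n = 5) with flaxseed and 107 ± 8.31 with flaxseed and radiation, a difference of 6.45 (two-sided exact permutation p = 0.484, adjusted 0.726 over 3 measures). Median local background was 18.9 ± 3.83 and 18.9 ± 1.26 (exact permutation p = 0.976, adjusted 0.976). The median ratio of signal to background was 5.5 ± 0.347 and 5.84 ± 0.56 (exact permutation p = 0.27, adjusted 0.726). The brightest spot of each array reached 39957 to 59526 units with flaxseed and 66675 to 101730 with both treatments, so these ranges did not overlap. Without flaxseed it reached 52142.5 to 90721 units untreated and 48878 to 101721 after radiation, ranges that did overlap. Values below are log2 intensities after background correction and quantile normalization, which gives every array the same highest value. Across spots, log2 values correlated at r = 0.95 to 0.975 for the 20 pairs of arrays within these groups and at 0.924 to 0.961 for the 25 pairs between them, where spots are not independent replicates.

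On the flaxseed diet some spots were higher and others lower in irradiated than in unirradiated lungs, and most changes were of modest size. In limma, a linear model fitted per spot over all 20 arrays, 730 of 9600 spots passed an adjusted p of 0.05, which is 7.60% of the array. Of these, 436 (4.54%) rose and 294 (3.06%) fell. The median log2 change was 0.74 among those that rose and -0.75 among those that fell, against -0.0038 over all spots. The split between directions depended on how arrays were scaled: it was 573 higher and 173 lower (76.8% higher) under median scaling and 418 higher and 120 lower (77.7% higher) with the values of the authors' table, against 59.7% higher with quantile normalization. A further measure that needs no model gave similar numbers: in 632 spots (6.58%) the 5 irradiated arrays did not overlap the 5 unirradiated arrays, 374 (3.90%) above and 258 (2.69%) below. Of the 730 that passed, 432 were without overlap. Leaving out flaxseed replicate 4 brought the count of 730 to 448, 274 higher and 174 lower.

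The falls reached further than the rises. Among the spots that rose, 61 changed by less than 0.5 on the log2 scale, 311 by 0.5 to 1, 61 by 1 to 1.5 and 3 by 1.5 to 2. Among those that fell the numbers were 46, 194, 25 and 12, and 17 more fell by 2 to 3. The largest rise was 1.95 and the largest fall -2.75. Changes beyond 2-fold that passed thus numbered 118 (1.23%), with 64 higher (0.667%) and 54 lower (0.562%). This split also moved with scaling, to 122 rises and 40 falls under median scaling and to 46 and 64 under cyclic loess. All 64 of the rises kept their direction in each of 21 alternative fits, but these reuse the arrays on which the 64 were picked.

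**Figure D1:**
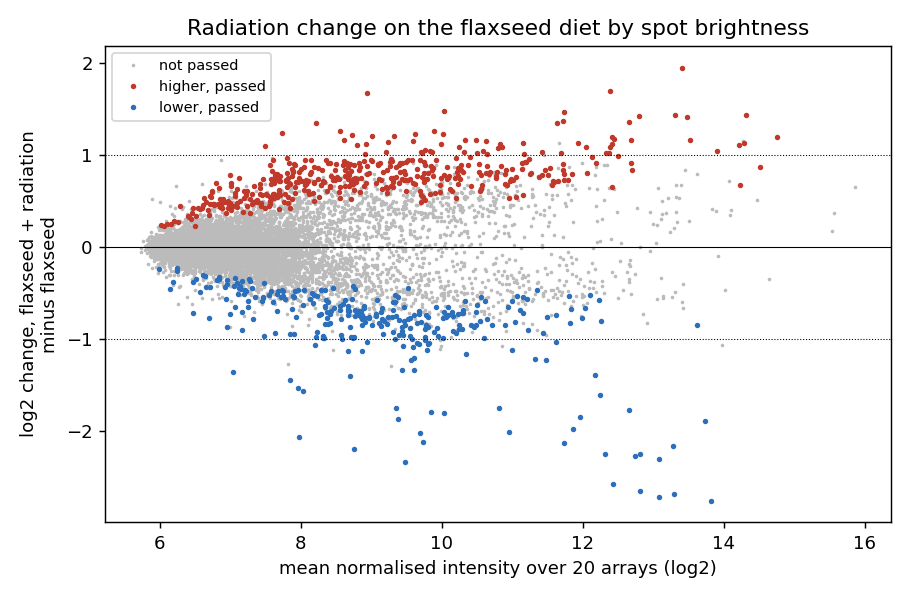
Log2 change of each spot (flaxseed with radiation minus flaxseed alone) against its mean log2 intensity over all 20 arrays; coloured points passed in limma and dotted lines mark 2-fold. The 17 falls beyond 4-fold have no counterpart among the rises, and few dim spots passed.

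The spot that rose with the largest moderated t, the fitted change over its standard error, was gene0316. With flaxseed alone its 5 arrays stood at 9.77, 9.71, 9.72, 9.61 and 9.42 (log2), and with radiation at 10.99, 10.67, 11, 10.8 and 10.57. All arrays with flaxseed and radiation lay above all arrays with flaxseed alone by more than the spread within either group. The log2 change was 1.16 with a standard error of 0.14 (95% interval 0.86 to 1.46; limma adjusted p = 0.000715), or 2.23-fold. In scanner units the signal was 584 to 818 with flaxseed and 1475 to 2225 with both, and the spot was bright, at 28.5 and 55.9 times its local background (medians). In the arrays without flaxseed it averaged 10.43 ± 0.39 (SD, n = 5) untreated and 10.46 ± 0.09 after radiation, both above the flaxseed arrays.

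Spot gene0269 behaved alike at a higher level. Its flaxseed arrays read 10.87, 10.34, 10.77, 11.06 and 11.34, and its irradiated arrays 12.46, 12.01, 12.22, 12.3 and 12.23. The groups were separated although the flaxseed arrays spread from 10.34 to 11.34. The log2 change was 1.37 ± 0.17 (SE; limma adjusted p = 0.000743), or 2.58-fold, from a signal of 1305 to 2361 units to one of 4781 to 5825. Without flaxseed its means were 11.8 ± 0.29 (SD, n = 5) untreated and 11.95 ± 0.29 irradiated, which lie between those of the 2 flaxseed groups.

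Spot gene7226 had the largest moderated t of all spots, and it fell. It read 8.68, 8.44, 8.67, 8.44 and 8.33 with flaxseed and 6.45, 7.58, 7.14, 7.18 and 7.02 with radiation. The irradiated mice differed among themselves by more than a log2 unit, yet each lay under each flaxseed mouse. The log2 change was -1.44 ± 0.17 (SE; limma adjusted p = 0.000671), or 2.71-fold lower. Signal went from 246 to 383 units down to 43.9 to 170, and from 13.3 to 6.29 times background in the median. With the offset of the background correction lowered to 10, the log2 change was -1.81. In the authors' table it was -2, or 3.99-fold. That table has no offset, but it also differs in background correction and scaling, and the part of each was not tested. Without flaxseed the spot stood at 8.2 ± 0.15 (SD, n = 5) untreated and 7.59 ± 0.32 irradiated.

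Spot gene6121 fell from a higher level. Its flaxseed arrays read 11.07, 11.01, 10.84, 9.99 and 10.63 and its irradiated arrays 8.62, 8.97, 9.49, 8.71 and 8.78. Flaxseed replicate 4 was the low array of its group and still above every array with flaxseed and radiation. The log2 change was -1.79 ± 0.23 (SE; limma adjusted p = 0.000743), or 3.46-fold lower, and signal went from 794 to 2125 units down to 384 to 773. Without flaxseed the means were 10.34 ± 0.31 (SD, n = 5) untreated and 9.43 ± 0.46 irradiated. For these 4 spots, the way they were picked largely fixes that the groups do not overlap.

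**Figure D2:**
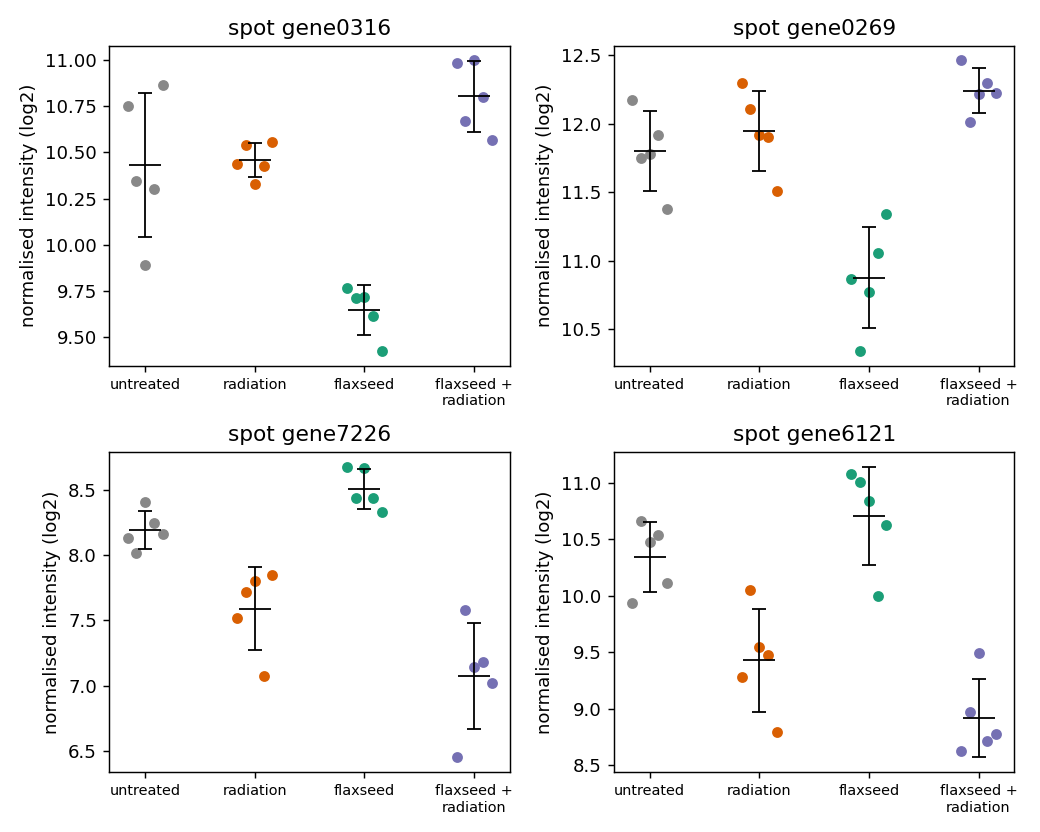
Normalised log2 intensity of the 4 spots on all 20 arrays, 1 point per mouse with the group mean and SD (n = 5). In each panel all 5 flaxseed arrays lie apart from all 5 arrays with flaxseed and radiation, and the means of the untreated and radiation arrays lie between those of these 2 groups.

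Other spots whose values correlated with these 4 over the 10 arrays, with group means removed, were counted among the 9599 compared. How many would reach the same r by chance on so few arrays was not worked out, so the counts do not show a link. At r above 0.8 there were 42 for gene0316, of which 4 had also risen, and 52 for gene0269, of which 5 had, where 4.54% of all spots rose. There were 44 for gene7226, of which 3 had also fallen, and 35 for gene6121, of which 2 had, where 3.06% of all spots fell. Of the spots next to them in the numbering, 0 of 4 for gene0316 and 1 of 4 for gene0269 rose, and 0 of 3 for gene7226 and 1 of 4 for gene6121 fell, counts too small to set against those shares.

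Changes were found mostly among bright spots. Spots were ranked by mean intensity into 5 classes of 1920. In the brightest class 264 rose and 200 fell, so that 24.2% had passed. In the next class 96 rose and 49 fell, in the middle class 39 and 28, in the one below 30 and 12, and in the dimmest 7 and 5, which is 0.625%. The median rise ran from 0.25 in the dimmest to 0.82 in the brightest class, and the median fall from -0.26 to -0.81. Median signal was 1.63 times background in the dimmest class and 27.8 times in the brightest, and the offset shrinks changes of dim spots; its part in these counts was not tested. The median absolute change over all spots of a class was 0.05 in the dimmest and 0.49 in the brightest, and groups without overlap made up 1.77% and 18.6% of these classes.

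Mouse by mouse, the changed spots separated the groups completely, which their choice fixes for the 2 groups compared. The mean of the 436 spots that rose was 8.5 to 8.76 on the 5 flaxseed arrays (median 8.62) and 9.31 to 9.43 on the arrays with both treatments (median 9.36). The mean of the 294 that fell was 9.64 to 9.75 with flaxseed and 8.71 to 9 with both. The other 10 arrays set neither direction. Among them the spots that rose averaged 8.98 to 9.19 untreated and 9.2 to 9.38 after radiation, and those that fell 9.1 to 9.34 and 8.84 to 9.06, so these ranges did not overlap either. On both sets the flaxseed arrays lay beyond every other array, on the side away from the irradiated ones. The flaxseed arrays took part in the choice of these spots, which by itself favours extreme values on them. The labels give no date or batch of hybridisation, so a batch that follows the groups cannot be told apart from the treatments. Spread within groups was close for both treatments, with a median SD per spot of 0.19 with flaxseed and 0.21 with both over all spots, 0.26 and 0.28 among spots that rose, and 0.27 and 0.29 among those that fell.

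**Figure D3:**
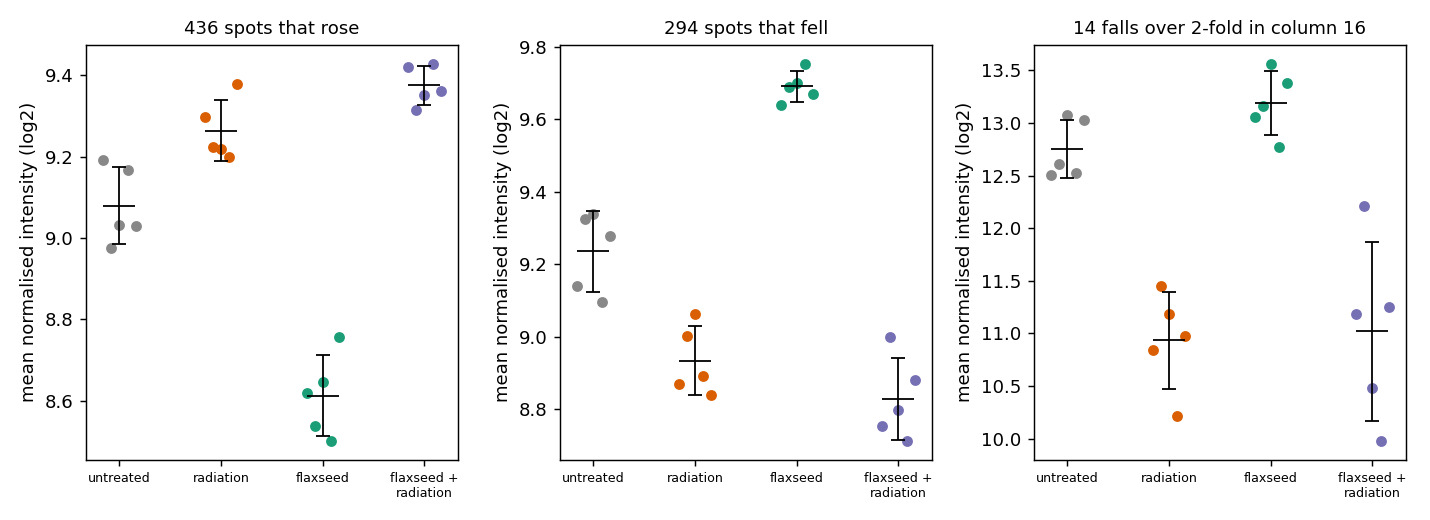
Mean log2 intensity per array over the 436 spots that rose, the 294 that fell and the 14 falls beyond 2-fold in column 16 (numbers read in rows of 25), 1 point per mouse with group mean and SD (n = 5). Flaxseed arrays lie beyond all others for the first 2 sets, which the choice of the spots favours. The 2 irradiated groups overlap in all 3 panels.

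The same spots were then read in radiation without flaxseed against untreated, a comparison on other arrays in which 9 spots passed (0.0938%). Among the 436 rises, 355 spots were higher there too, 0 of them beyond 2-fold, and the median log2 change was 0.18 against 0.74. Of the 294 that fell, 201 were lower there, with a median of -0.13 against -0.75, and 31 were beyond 2-fold. Of the 64 rises beyond 2-fold on the flaxseed diet, 49 were also higher after radiation without flaxseed, with a median log2 change of 0.24 against 1.14, and 0 were beyond 2-fold there. Of the 54 falls beyond 2-fold, 51 were lower on the other diet, with a median of -1.24 against -1.58, and 30 were beyond 2-fold there. The 14 of these falls in column 16, with the numbers read in rows of 25, had a median of -2.02 without flaxseed and the other 40 a median of -0.68. The spots were picked for large changes on the flaxseed diet, which by itself favours larger values there. The shares of all spots that were higher, lower or beyond 2-fold without flaxseed are not given here. These counts alone therefore do not show that the diets were alike.

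The test of the difference itself, radiation change on the flaxseed diet minus that on the other diet, passed for 0 of 9600 spots in limma (0.00%), with 971 at an unadjusted p under 0.05. Spot gene0316 had the smallest p among positive differences: it changed by 1.16 on the flaxseed diet and by 0.03 ± 0.14 (SE) without flaxseed, a difference of 1.13 ± 0.2 (limma adjusted p = 0.0707). Spot gene4007 had the smallest p among negative ones. It read 9.86, 10.47, 10.08, 10.39 and 10.37 with flaxseed and 9.02, 9.24, 9.05, 9.24 and 9.2 with both, and averaged 9.37 ± 0.26 (SD, n = 5) untreated and 9.59 ± 0.31 with radiation. Its changes were -1.09 ± 0.15 and 0.22 ± 0.15 (SE), a difference of -1.31 ± 0.21 (limma adjusted p = 0.0616). The falls of gene7226 and gene6121 were -0.6 ± 0.17 and -0.92 ± 0.23 (SE) without flaxseed, which did not pass there (limma adjusted p = 0.245 and 0.166), and their differences of -0.83 ± 0.24 and -0.88 ± 0.33 did not pass either (limma adjusted p = 0.268 and 0.379). For gene0269 the difference was 1.22 ± 0.25 (limma adjusted p = 0.0852). Leaving out radiation replicate 5 turned the count of 0 into 13. It became 3 without untreated replicate 3, and leaving out flaxseed replicates 3 or 1 gave 2 and 1.

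**Figure D4:**
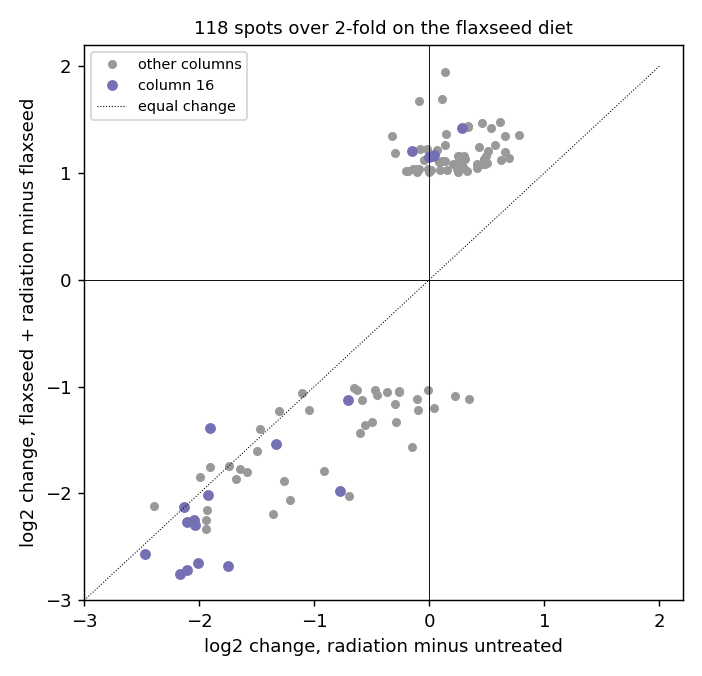
Log2 change on the flaxseed diet (vertical) against log2 change without flaxseed (horizontal) for the 118 spots that passed and were beyond 2-fold on the flaxseed diet. The 64 rises have a median of 0.24 on the horizontal axis, with 49 above 0 and 0 beyond 2-fold. Of the 54 falls, 30 are also beyond 2-fold there, 12 of the 14 column 16 falls among them.

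Changed spots were unevenly placed. The files list spots in 1920 runs of 5 successive numbers, and 1840 runs start 25 above the run before, so the numbers can be read as a grid with 25 columns and 24 rows in each of 16 blocks. Whether the array was printed in this grid is not known. Column 13 held 36 spots that rose and 0 that fell among its 384 spots, and column 25 held 1 that rose and 21 that fell. Columns also differed in brightness. On the flaxseed arrays the mean log2 intensity relative to the array mean was 0.65 in column 13 and -0.04 in column 25. The part of brightness in these counts was not tested. Columns 7 to 13, a range chosen after the values were seen, held 28% of the spots, 46.1% of the rises and 8.5% of the falls. The mean change over all spots of a column ran from -0.17 in column 25 to 0.18 in column 13, against -0.09 to 0.05 for radiation without flaxseed. With column, row and block means removed from each array, column 13 held 18 rises and 19 falls, column 25 held 6 and 4, column 16 held 29 and 26, and columns 7 to 13 held 135 and 82. This step gives every column the same mean change, so it largely fixes that the counts became more even. The total was then 773 spots, 567 of them among the 730. Of the spots that rose, 30.3% had a direct neighbour in the numbering that rose too, where 16.2% of all spots had such a neighbour; for falls these shares were 24.5% and 11%.

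Column 16 stood out by its large falls. It held 4% of the spots and 12.6% of the falls, with 37 spots that fell and 12 that rose. With position removed it held 26 that fell and 29 that rose. As that step gives every column the same mean change, it largely fixes an evener split. The column held 14 of the 54 falls beyond 2-fold, spread over 7 blocks. These 14, chosen after their values were seen, fell by 1.13 to 2.75 on the log2 scale, with a median of -2.26, and by a median of -2.02 without flaxseed. They were bright, all in the top 25.4% of spots. Of the 135 column 16 spots in that range, the 14 included, 32 fell and 9 rose, where 223 fell and 296 rose of all 2437. The mean of the 14 per array was 13.05, 13.16, 13.57, 12.77 and 13.38 with flaxseed and 11.19, 12.21, 10.48, 9.98 and 11.25 with both. In this mean the irradiated mice differed from each other by over 2 log2 units, with replicate 2 the highest, and none reached the flaxseed mice; spot by spot the groups did not overlap in 11 of the 14. With group means removed the 14 tended to move together over the 10 arrays, with a median r of 0.66 over 91 pairs (-0.46 to 0.92). For the 40 large falls of other columns it was 0.14 over 780 pairs (-0.85 to 0.96). The median SD per spot with both treatments was 1.07 for the 14 and 0.43 for the 40. The arrays and their normalization are common to all pairs. The 49 spots beside them in the numbering had a median change of 0.02. Of these 49, 21 had a lower mean after radiation, 2 fell and 4 rose, where 3.06% of all spots fell and 4.54% rose. The 14 were lower under all 21 alternative fits, position removal included, and 12 to 14 of them passed in each. These fits reuse the arrays on which the 14 were picked, so the choice largely fixes this.

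**Figure D5:**
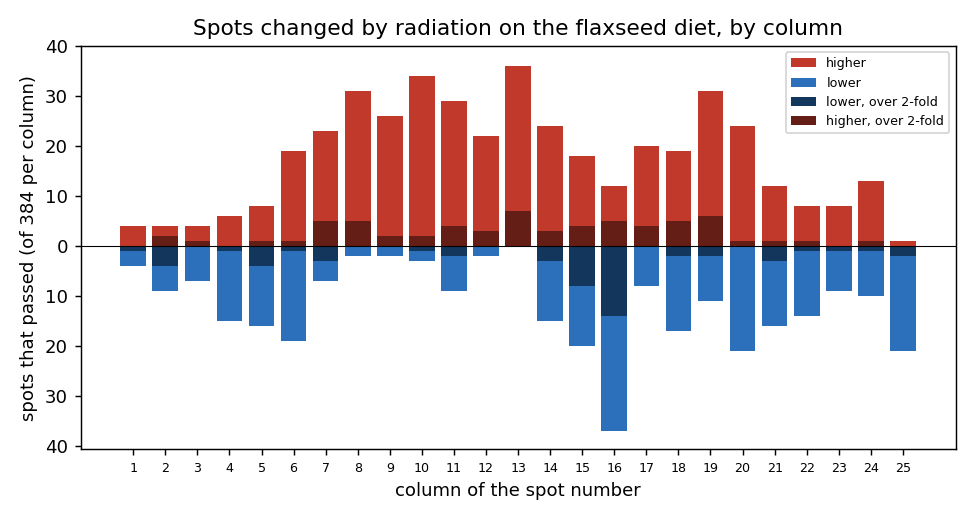
Number of spots per column of the spot number that rose (upward) or fell (downward) with radiation on the flaxseed diet; dark parts are changes beyond 2-fold. Column 16 holds the most falls (37, of which 14 beyond 2-fold) and column 13 the most rises (36).

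The local background around changed spots mostly moved in the direction of their signal. Relative to each array's median, background was higher after radiation around 386 of the 436 spots that rose (median log2 change 0.26) and around 27 of the 294 that fell (median -0.28), against 4745 of all 9600. Around the 14 falls of column 16 it changed by a median of -1.62. Across spots, the change of background and the change of signal correlated at r = 0.582, and their mean levels over 20 arrays at r = 0.808; all spots share the same arrays. Without any background correction 779 spots passed, 473 higher and 306 lower, and 674 of the 730 were among them in the same direction.

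A smaller core of changes passed without any 1 of the 10 mice. In each of the 10 fits that left out 1 of the compared arrays, 332 of the 730 spots passed in the same direction, 209 higher and 123 lower. The core held 51 of the 64 large rises and 44 of the 54 large falls. Under 10 other settings that kept all spots, 297 passed each time, 220 higher and 77 lower, and 258 met both conditions. All these fits reuse arrays on which the 730 were called, which by itself favours passing again. Spots gene0316, gene0269, gene7226 and gene6121 passed in all 10 fits with an array left out and under all 11 other settings. They were picked for the largest moderated t on the same arrays, which favours this.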

How the data were processed

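Lung RNA of 20 mice was measured on 20 single-channel arrays, 5 per treatment in the labels, with replicates numbered in accession order. The deposited scanner files hold, per the file headers, the median signal and median local background of each spot as intensity, not normalized. The authors' deposited series table holds intensity; 95.9% to 97.7% of its values per array equal signal minus background, scaled to a median of 1 (relative tolerance 0.001), with 217 values under 0; 2 radiation columns hold each other's array, within 1 group. Its scale is linear and it is not centred. The sources used here do not give the image software.

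Background was corrected by normexp (offset 50), arrays were quantile normalized, and log2 values of all 4 groups were fitted with limma 3.58.1 in R 4.3.3 (16 residual and 2.75 prior degrees of freedom). Tests were two-sided, with Benjamini-Hochberg adjustment over 9600 spots and a threshold of 0.05; the median standard error was 0.14. Control and duplicate spots are not marked, so every spot was tested. Named spots are the 2 with the largest moderated t in each direction, and the smallest p in each direction for the difference between diets. Gene lists could not be applied without gene names. Array measures were tested over all 252 splits of 10 arrays. The number of arrays limits the precision. The limma p-values set a difference between groups against the spread within groups. With a single array per mouse, that spread does not separate differences between mice from differences between arrays. The fit was tested on simulated data. Alternatives were an offset of 10, no background correction, subtraction, the authors' table, cyclic loess, median scaling, no dimmest 33.3% of spots, only the 2 groups, trend and robust options, array weights, removal of position, and each array left out. The comparison, rules and settings were chosen with earlier results of these data known.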

Additional observations from a re-analysis of the deposited data

Results flagged for a closer look

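Dixon's criterion for 1 stray value among 5 arrays was applied to 50 groups of values, and 2 exceeded it, where about 1 in 20 would do so by chance. Untreated replicate 3 read 9.84 (log2) for spot gene4007, and the remaining untreated arrays read 9.21 to 9.29. In replicate 1 of the mice given both treatments, 19.7% of the variance over spots (each spot's deviation from its mean over 20 arrays) followed the row of the numbering. This share was 2.03% to 5.26% in the remaining arrays of the group. A fit without that array gave 537 changed spots on the flaxseed diet, 470 of them among the 730.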

How the results depend on the processing

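The count of 730 spots for radiation on the flaxseed diet lay between 505 and 844 under the 11 other settings, and between 448 and 690 with single arrays left out, lowest without flaxseed replicate 4 (448, of which 420 were among the 730). The count of 118 beyond 2-fold was 277 with the authors' table, 202 without background correction, 283 with background subtraction and 201 with an offset of 10, which all lack or reduce the offset, and 105 to 151 with single arrays left out. The difference between diets, at 0 spots, reached 6 with median scaling, 9 without the dimmest spots, 1 with subtraction and 1 with position removed; with single arrays left out it was 0 to 13 (leaving out radiation replicate 5 gave 13, untreated replicate 3 gave 3, and flaxseed replicates 3 and 1 gave 2 and 1). The cause of these moves was not tested. The log2 changes under the 11 other settings ran from 1.13 to 1.36 for gene0316, 1.28 to 1.48 for gene0269, -2.05 to -1.25 for gene7226 and -1.93 to -1.61 for gene6121. With single arrays left out they ran from 1.1 to 1.22, 1.23 to 1.47, -1.56 to -1.28 and -1.97 to -1.7. The difference in median background of 0.0206 units changed sign without flaxseed replicate 1 (-0.61), 4 (-0.951) or 5 (-0.426) and without flaxseed and radiation replicate 2 (-0.148) or 4 (-0.442), and ran up to 1.14; the difference in median signal ran from 1.14 to 12.6 and in median ratio from 0.197 to 0.526, and no exact p passed. No paired analysis was possible because the labels number the mice 1 to 20 and share no number between groups. In the dimmest class of 1920 spots the median signal was 1.63 times background, which limits what can be measured there.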
